A study of Mus musculus with 5 samples.

Results

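The comparison described here set mouse cells with knockdown of Linc1405, a long non-coding RNA, against control cells at day 10 of differentiation, the stage that the labels call cardiomyocytes. It used 2 of the 5 arrays of the series, with 1 array for the knockdown and 1 for the control. Of 17742 genes measured, the 10888 whose brighter day 10 array was at or above the array median (a log2 intensity of 9.16) were kept, so that dim probes did not fill the ranking. Both cultures came from 46C, a mouse embryonic stem cell (ESC) line, and were kept in StemCell Pro-34 medium with 10 ng/ml bFGF, 5 ng/ml VEGF and 25 ng/ml FGF10. The control culture carries no other description than "control". The modified culture is labelled as a Linc1405 knockdown, and its sample title holds the letters KIpA. What KIpA stands for, how the line was made and whether it is 1 clone are not given in the sources used here. The day 4 arrays, used below only to show where a gene came from, held mesoderm cells of both kinds grown with 0.2 ng/ml Bmp4, 5 ng/ml Activin A and 5 ng/ml VEGF, and the ESC array held cells at day 0, labelled control, kept on feeder cells with 15% fetal bovine serum and LIF at 1000 U/ml.

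With 1 array a side there was no spread between cultures and no test, and each value below describes these 2 arrays alone. Levels are log2 intensities after quantile normalization over the 5 arrays, and a difference is always knockdown minus control on the log2 scale, so that -1 is a halved intensity. Where a gene has several probes, the value is from the probe brightest over the 5 arrays, which need not be the brightest at day 10. Values were set to a floor at 6.64, and a gene at the floor has only a bound. As a measure of probe error, the log2 difference of a single probe had an SD of 0.272, from 1079 genes with a pair of bright probes, which says nothing of how cultures vary. The normalization centres the arrays on each other. In the values as deposited the knockdown array was brighter in general, by a median of 0.53 among genes past the filter, and 86.2% of the 2-fold differences were then on the higher side, against 40.9% after normalization. All differences are therefore relative to the bulk of genes. The knockdown array at day 10 also had 1050 probes at or below an intensity of 0 against 3 in the control. The floor replaced these and other dim probes, up to 19.1% of an array. No named probe was for Linc1405, so its own level, and with it the extent of the knockdown, was not analysed here.

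Heart muscle contracts through sarcomeres, in which thin filaments of actin, tropomyosin and troponin slide along thick filaments of myosin, while Z-discs anchor the thin filaments and titin spans the unit as a spring. Calcium released from the sarcoplasmic reticulum starts each beat, and mitochondria with muscle-specific enzyme isoforms supply the energy. Cultures driven from ESCs through mesoderm towards heart muscle commonly also hold other derivatives, such as the epicardium that wraps the heart, endothelium, fibroblasts and endoderm that makes plasma proteins. Eomes, the T-box factor that the series title places in a complex with Linc1405, acts early, in the primitive streak and its mesoderm and endoderm.

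Promoters are shown for the 4 genes of the sarcomere and Z-disc lists, and the 2 of the plasma protein and apolipoprotein lists, that were lowest in the knockdown among those with an entry in the RefSeq promoter table (GRCm38.p6). They show what lies before the start of the muscle and liver-type genes with the largest differences below 0. Each line gives the 250 bases before the annotated start, 5′ to 3′ on the strand of the gene. Capitals mark exact matches, on either strand, to motifs searched for by letters: TATAAA as the core promoter element, AGATAA as the site of GATA factors, GGTGTGA as that of T-box factors, CATTCC as the MCAT element bound by TEAD factors, CAGCTG as an E-box, GTTAAT as the site of HNF1 and TGTTTAC as that of Foxa proteins. The CArG box of SRF and the MEF2 box were searched as degenerate motifs. No marked matches overlapped.
Acta1, skeletal alpha-actin, chr8:123894776-123895025, minus strand: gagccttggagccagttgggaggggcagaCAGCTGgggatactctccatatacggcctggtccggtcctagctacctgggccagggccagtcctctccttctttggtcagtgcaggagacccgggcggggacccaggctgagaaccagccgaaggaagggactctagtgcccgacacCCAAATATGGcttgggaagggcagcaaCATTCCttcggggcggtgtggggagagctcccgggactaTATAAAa
Ttn, titin, chr2:76982548-76982797, minus strand: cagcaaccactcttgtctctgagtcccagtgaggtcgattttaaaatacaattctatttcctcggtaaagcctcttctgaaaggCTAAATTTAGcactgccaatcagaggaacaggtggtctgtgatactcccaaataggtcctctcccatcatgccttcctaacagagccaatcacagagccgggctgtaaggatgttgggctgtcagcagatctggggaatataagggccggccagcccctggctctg
Actn2, sarcomeric alpha-actinin, chr13:12340733-12340982, minus strand: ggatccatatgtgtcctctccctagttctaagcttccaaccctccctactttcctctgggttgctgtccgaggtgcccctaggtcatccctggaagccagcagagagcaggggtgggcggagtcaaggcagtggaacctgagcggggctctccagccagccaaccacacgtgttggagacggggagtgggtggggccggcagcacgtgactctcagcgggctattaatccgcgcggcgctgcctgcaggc
Ankrd1, a Z-disc ankyrin-repeat protein, chr19:36119845-36120094, minus strand: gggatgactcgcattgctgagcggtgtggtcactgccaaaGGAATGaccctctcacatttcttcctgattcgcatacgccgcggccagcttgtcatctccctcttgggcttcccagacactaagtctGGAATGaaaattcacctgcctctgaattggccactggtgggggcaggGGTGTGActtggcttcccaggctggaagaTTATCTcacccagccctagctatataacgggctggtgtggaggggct
Tdo2, the tryptophan-degrading dioxygenase of liver, chr3:81975729-81975978, minus strand: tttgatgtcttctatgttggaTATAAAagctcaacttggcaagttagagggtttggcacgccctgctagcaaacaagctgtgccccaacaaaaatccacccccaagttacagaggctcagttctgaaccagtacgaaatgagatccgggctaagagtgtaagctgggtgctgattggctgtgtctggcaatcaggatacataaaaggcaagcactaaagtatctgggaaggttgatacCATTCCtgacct
Apob, the scaffold of very low density lipoprotein, chr12:7977427-7977676, plus strand: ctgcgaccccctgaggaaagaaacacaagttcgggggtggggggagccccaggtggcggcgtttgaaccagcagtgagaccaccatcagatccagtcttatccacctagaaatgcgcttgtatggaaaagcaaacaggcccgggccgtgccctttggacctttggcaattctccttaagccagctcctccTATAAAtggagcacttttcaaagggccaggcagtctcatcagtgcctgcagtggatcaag

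The Acta1 window held an E-box from base -221 to -216 before the start, a CArG box from -73 to -64, an MCAT element from -46 to -41 and TATAAA from -7 to -2. Ttn held only a MEF2 box (-166 to -157) among the motifs searched, and Actn2 held none of them. Ankrd1 held MCAT elements at -210 to -205 and -123 to -118, GGTGTGA at -76 to -70 and a GATA match at -47 to -42. Tdo2 held TATAAA at -229 to -224 and CATTCC at -12 to -7, and Apob held TATAAA at -60 to -55. Over the wider window of 300 bases, which runs 50 bases past the start, 32.1% of 56 promoters of the heart muscle lists (thin and thick filament, Z-disc, calcium handling, conduction, hormones and metabolism) held CATTCC, against 12.0% of 8753 promoters of genes past the filter. CAGCTG stood in 39.3% against 14.9%, AGATAA in 19.6% against 6.06%, the MEF2 box in 12.5% against 1.65% and the CArG box in 7.14% against 1.31%. The T-box letters GGTGTGA stood in 4 of the 56 (7.14%, against 3.14%). Of 21 promoters of the plasma protein and apolipoprotein lists, 33.3% held GTTAAT, against 4.28%, and 33.3% held TATAAA, against 7.37%. CATTCC stood in 23.8% of these 21, so it was not particular to the heart muscle lists. These shares describe lists chosen by function. Over all genes at least 2-fold lower in the knockdown, 295 with a promoter, the shares lay nearer to the background: 14.2% for CATTCC, 20.3% for CAGCTG, 10.5% for AGATAA, 4.41% for GGTGTGA and 7.46% for GTTAAT. Over the 200 with a promoter among genes at least 2-fold higher, they were 15.0%, 17.5%, 5.5%, 5.0% and 4.5% in the same order. The MEF2 box, the CArG box and TATAAA stood in 4.41%, 2.71% and 12.5% of the lower set and in 2.5%, 0.5% and 9.5% of the higher set. A match is a description of letters and not a binding site.

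Most genes were close in the knockdown and control cultures. The difference lay within 0.5 of 0 for 8673 genes (79.7%), with 25th and 75th percentiles of -0.21 and 0.25, and 5th and 95th percentiles of -0.82 and 0.71. At least 2-fold higher in the knockdown were 272 genes (2.50% of those past the filter), and at least 2-fold lower were 393 (3.61%). Past 4-fold the sides were nearly even, with 63 higher and 60 lower, and past 8-fold each held 17. Among genes with a pair of bright probes, 51 were 2-fold apart on the brighter probe, and on the other probe 48 of these had the same sign and 29 were also 2-fold apart. The filter looks at the brighter of the 2 arrays, so a gene that passed through 1 array alone had to differ. This holds on both sides: a kept gene with 1 of its 2 day 10 levels below 9.16 passed through the other array alone. Wherever such genes are among those counted, a count of 2-fold genes follows in part from the filter. Where a list is described by its medians, they are therefore given over all measured members and over those past the filter, beside 0.00 and 0.03 over all genes, and are descriptions only. The ranking of highest and lowest genes covers genes past the filter with both day 10 arrays above the floor, and leaves out 348 symbols of gene models or clones. Of all genes past the filter, 5822 genes lay above 0 and 5056 below.

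**Figure D1:**
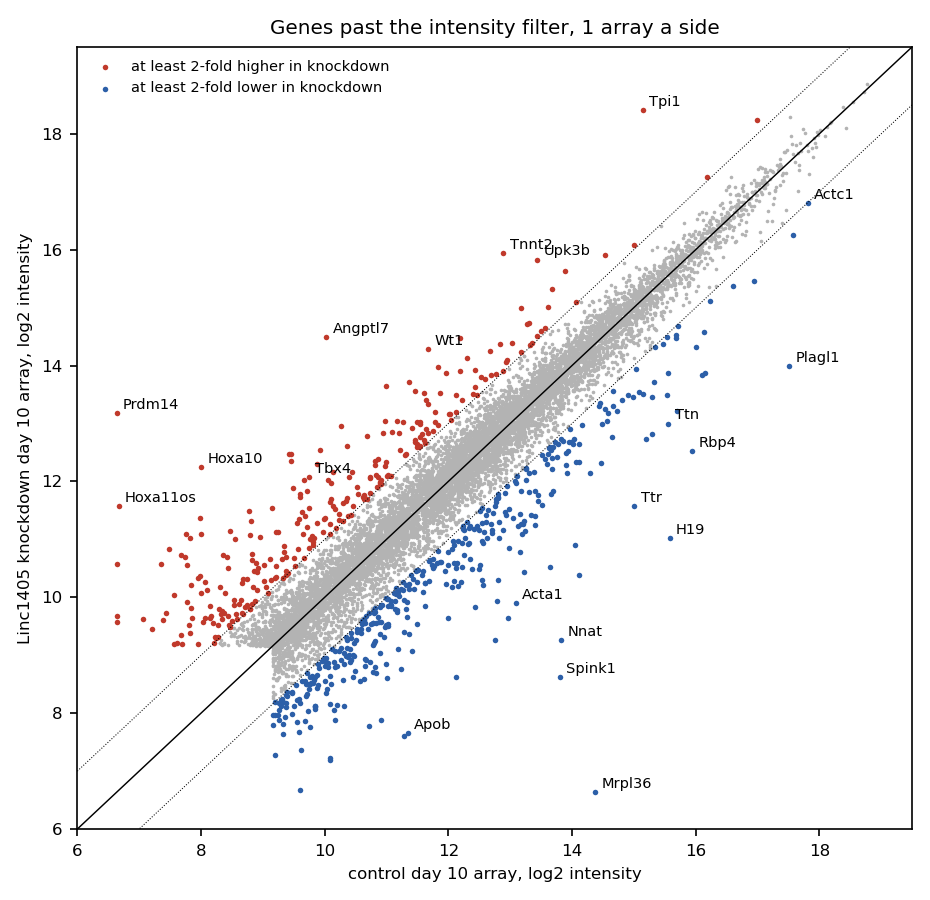
Log2 intensity of each gene past the filter on the control array (x axis) and the knockdown array (y axis) at day 10, with the line of equality and dotted lines at 2-fold. The 272 red points are at least 2-fold higher and the 393 blue points at least 2-fold lower in the knockdown, and most grey points hug the diagonal.

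Before the gene groups, the cell type label was set against marker genes. Both day 10 arrays carried heart muscle markers: over the 6 of 13 cardiomyocyte markers that were measured, the summed normalized intensity went from 5290 and 5360 at day 4 (control and knockdown) to 352000 and 203000 at day 10. Of these 6, 4 were at least 2-fold lower, while Tnnt2 was at least 2-fold higher (12.89 and 15.94, 3.05). Actc1 was the brightest of them in both arrays (17.82 and 16.81). The other 7 markers, among them the myosin genes Myh6 and Myh7 and the factor Nkx2-5, had no named probe here. The 6 epicardial markers summed to 44800 in the control and 154000 in the knockdown, and each of the 6 was at least 2-fold higher. The 5 markers of liver-type endoderm summed to 110000 and 19600, with 4 of 5 at least 2-fold lower and Alb, serum albumin, at 0.08. Blood and macrophage markers summed to 9410 and 4810. Endothelial markers (48800 and 49500), fibroblast markers (196000 and 200000) and the 3 measured smooth muscle markers (264000 and 273000) were close to level. Of the smooth muscle markers Cnn1, calponin, was near or at the floor in both arrays, and the sum was nearly all Acta2. Neural markers (3 of 4 measured) were low throughout (1330 and 1420), with Pax6 at the floor in the knockdown. In a wider neural list all 9 genes past the filter lay above 0 and 2 were at least 2-fold higher (medians 0.22 over 22 measured and 0.34 past the filter). The 2 of 4 pluripotency markers measured summed to 3130 and 2160, against 38500 in ESCs. That sum fell mostly through Zfp42, at 15.04 in ESCs and 7.49 and 7.62 at day 10. Pou5f1 was at 12.2 in ESCs and still at 11.53 and 10.94 at day 10. The cultures thus differed in markers of several cell types together. Their part in the results below was not tested, and in bulk RNA fewer cells of a type and less RNA per cell cannot be told apart.

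**Figure D2:**
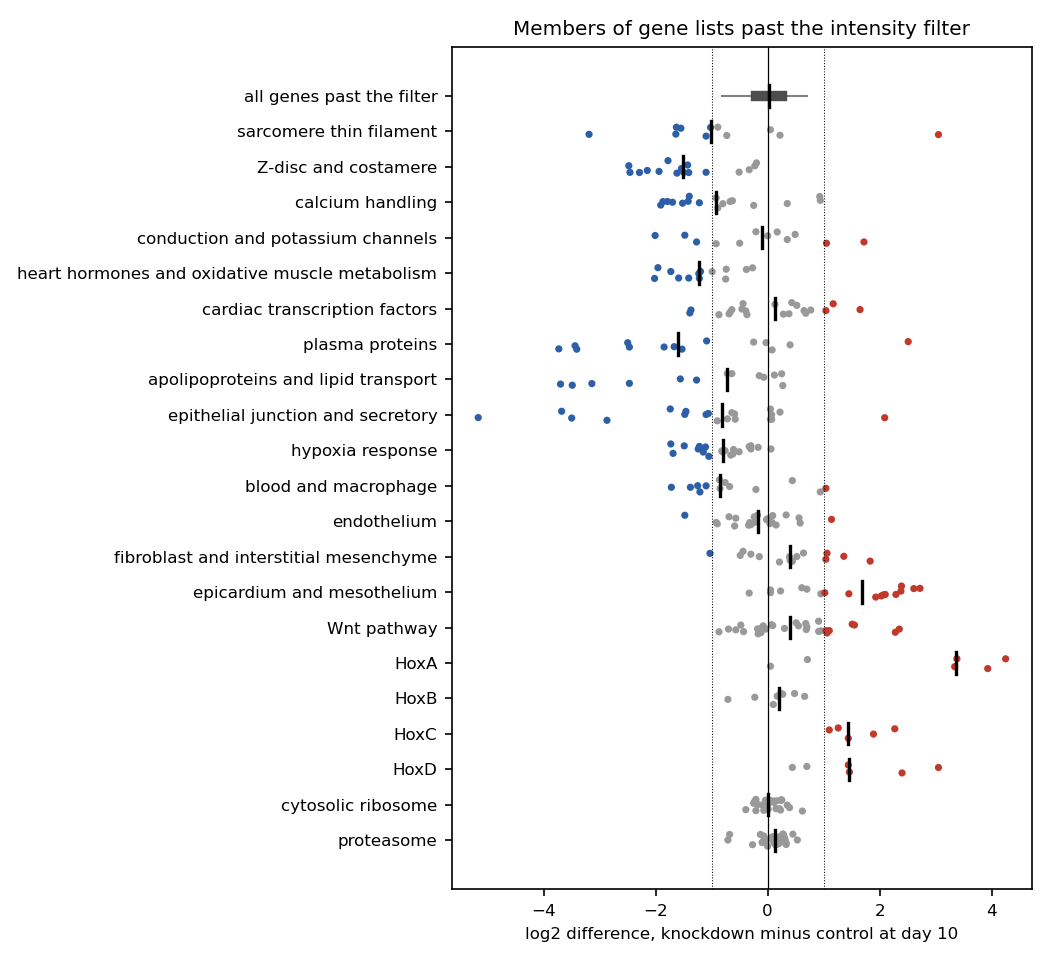
Each point is a list member past the filter, placed by its log2 difference (knockdown minus control at day 10); red and blue points are at least 2-fold higher or lower, bars are list medians, and the top row shows the 25th to 75th percentile (box) and 5th to 95th percentile (line) of all genes. Z-disc, hormone and metabolism, plasma protein and epithelial lists lean left, epicardium, HoxA, HoxC and HoxD lean right, and the ribosome and proteasome lists sit at 0.

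Genes of the contractile apparatus were lower in the knockdown, with 1 exception of size. Of 11 thin filament genes past the filter 6 were lower by 2-fold or more and 1 higher (14 measured, medians -0.93 over those measured and -1.02 past the filter). Acta1, the skeletal actin that young heart muscle also uses, was at 8.15 in the control and 8.04 in the knockdown at day 4. At day 10 it was at 13.09 in the control but 9.90 in the knockdown, a difference of -3.19. Actc1, the main cardiac actin, was at 17.82 and 16.81 (-1.02), and both arrays lay far above day 4 (10.35 and 10.59). Tnnc1, the calcium-binding troponin, was at 15.15 and 13.51 (-1.64), Tnni3, the adult cardiac inhibitory troponin, at 16.13 and 14.58 (-1.55), and Tnni1, its fetal counterpart, at 17.04 and 16.31 (-0.73). Lmod3 (-1.63) and Tmod1 (-1.10), which cap and lengthen thin filaments, were on the same side. The exception was Tnnt2, the cardiac troponin that binds tropomyosin, at 12.89 in the control and 15.94 in the knockdown, a difference of 3.05 from a single probe. Its day 4 levels were 8.82 and 8.51. Tpm1, a tropomyosin with 3 probes, gave 0.22 on the brightest, -1.80 on the next and -0.07 on the dimmest, so its direction was not settled. Acta2, the smooth muscle actin also made by immature heart muscle, was level at 18.01 and 18.06, with -0.73 on its dimmer probe.

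Of 16 thick filament and titin genes listed, only Ttn and Unc45b were measured. Ttn was at 15.56 in the control and 13.00 in the knockdown (-2.57) after 10.47 and 10.48 at day 4. Unc45b, a myosin-folding chaperone, was at 10.82 and 9.81 (-1.01).

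In the Z-disc and costamere list 12 of 16 genes past the filter were lower by 2-fold or more, none was higher, and the medians were -1.46 over 18 measured and -1.52 past the filter. Actn2, which crosslinks the thin filaments, was at 15.30 and 12.82 (-2.48). Ankrd1, a stretch-responsive partner of titin, was at 15.19 and 12.73 (-2.46), and Csrp3, the muscle LIM protein, at 16.16 and 13.87 (-2.29). Sorbs2 was at 13.40 and 11.25 (-2.15), and Ldb3, with 4 probes that all lay between -0.97 and -1.94, was at 13.52 and 11.59 on its brightest. Nearest to 0 stood Fhl2 (-0.20), Pdlim5 (-0.23, with 0.01, -0.21 and -1.03 on its other probes), Flnc (-0.33) and Des (-0.51), the muscle intermediate filament, which other cell types also express. Outside the lists, Mlip, a lamin-interacting protein of muscle, was among the 15 lowest genes of the whole ranking at 13.65 and 10.53 (-3.12).

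Calcium handling followed the same side, with 8 of 17 genes past the filter at least 2-fold lower and none at least 2-fold higher (medians -0.89 over 19 measured and -0.92 past the filter). Cacna1c, the pore of the cardiac L-type calcium channel, was at 13.13 in the control and 11.23 in the knockdown (-1.91), and Cacna1d, a relative found in pacemaker cells, at 9.73 and 8.03 (-1.70). Atp2a2, the pump that refills the sarcoplasmic reticulum, was at 14.98 and 13.46 (-1.52) on the probe brightest over the 5 arrays. Its other probes gave 15.90 and 14.20 (-1.70), which was the brightest at day 10, and -0.31. Srl (-1.87), Casq1 (-1.79), Hrc (-1.42) and Jph2 (-1.22), proteins that store calcium or hold the reticulum to the surface membrane, were at least 2-fold lower too. Casq2, the cardiac calsequestrin, was at -0.63 and Pln, the brake on the pump, at -0.92. Against the list stood the exchanger Slc8a1 (0.93) and the T-type channel Cacna1g (0.94), short of 2-fold, whereas the related T-type channel Cacna1h was at -1.40.

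Ion channels and junctions of conduction did not lean one way at the filter used: 3 of 12 past it were lower by 2-fold or more, 2 higher, and the medians were 0.00 and -0.10. With a filter at the 75th percentile, which leaves fewer members, the median relative to all genes was -0.95. Kcnj5, a subunit of the acetylcholine-gated potassium channel of atria and pacemaker cells, was at 12.50 in the control and 10.49 in the knockdown (-2.01), after -1.07 at day 4. Bves (-1.48), Popdc3 (-1.27) and Popdc2 (-0.92, with -1.22 and -0.90 on its other probes), the Popeye proteins of heart and skeletal muscle, were all on the lower side. Kcna5 was at 7.80 and 9.53 (1.72) and Kcnk3 at 8.58 and 9.63 (1.05). Kcna5 and Kcnk3 were below the filter in the control and passed through the knockdown array alone, while Popdc3 passed through the control array alone. The counts on both sides therefore follow in part from the filter. The gap junction genes Gja1 (0.49), Gja5 (0.35) and Gjc1 (0.17) were within 2-fold.

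Heart hormones and oxidative muscle metabolism gave 8 of 13 past the filter at least 2-fold lower and no gene above 0 (medians -0.99 over 17 measured and -1.22 past the filter). Nppa and Nppb, the atrial and brain natriuretic peptides, were at 13.94 and 12.52 (-1.41) and at 10.78 and 9.55 (-1.23). Ppargc1a, the coactivator of mitochondrial biogenesis, lay at the floor in the 3 earlier arrays and at 10.81 and 8.79 at day 10 (-2.02). Esrrg, its nuclear receptor partner, was at 11.96 and 10.23 (-1.73). Mb, myoglobin, was at -1.59 on the brighter of its probes and -0.33 on the other.

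The muscle isoforms of respiratory and glycolytic enzymes parted from their ubiquitous counterparts. Cox7a1 was at 12.52 and 10.55 (-1.96), against 0.12 for Cox7a2, and Cox8b was at 11.05 and 9.86 (-1.20), against -0.14 for Cox8a. Cox6a2 was at 10.23 and 9.23 (-0.99) on the probe brightest over the 5 arrays and at 13.56 and 11.57 (-1.99) on its other probe, which was the brighter at day 10, against 0.09 for Cox6a1. In glycolysis Pgam2, the muscle phosphoglycerate mutase, was at 16.60 and 15.38 (-1.22), against -0.18 for Pgam1. Outside these isoforms the respiratory chain was near level. None of 30 complex I genes past the filter was 2-fold apart (median 0.00), and of 30 genes of complexes II to V the 3 that were 2-fold lower were Cox7a1, Cox8b and Cox7a2l (-1.01), with Cox6a2 past 2-fold on its other probe as well.

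**Figure D3:**
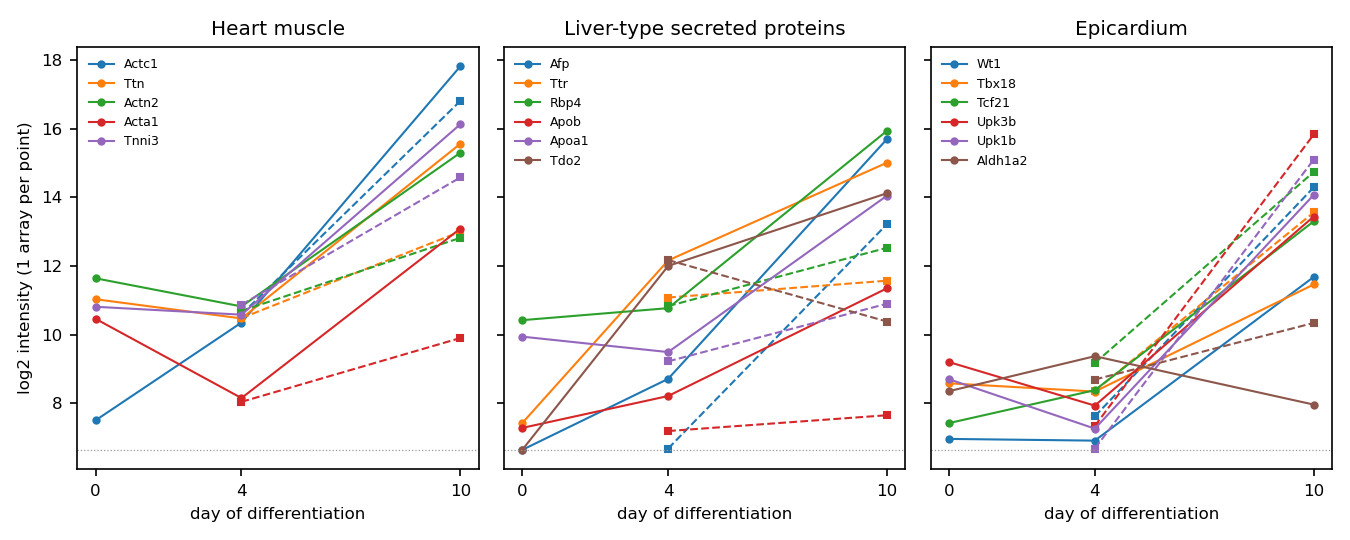
Log2 intensity at day 0, 4 and 10 for named heart muscle, liver-type and epicardial genes, with circles and solid lines for control and squares and dashed lines for knockdown cells (1 array a point, dotted line at the floor). At day 10 the squares lie below the circles for the heart muscle and liver-type genes shown and above them for the epicardial genes. Genes were picked for display, and Tnnt2 (3.05) and Alb (0.08), which did not go the same way, are not shown.

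Transcription factors of the heart were spread around 0, unlike the muscle genes. Of 21 past the filter 11 lay above 0 and 10 below, 3 were at least 2-fold higher and 2 lower, and the medians were -0.06 over 25 measured and 0.13 past the filter. Tbx20, a T-box factor of heart chambers, was at 10.39 and 9.0 (-1.39), and Hopx at 14.01 and 12.64 (-1.37, with -0.65 on its other probe). Gata4 (0.28), Hand2 (0.43) and Tbx5 (-0.37), core factors of early heart, and Mef2c (-0.87), an activator of muscle genes, were within 2-fold. On the higher side stood Nr2f1 at 11.68 and 13.33 (1.65), Nr2f2, a factor of atrial muscle and veins, at 13.32 and 14.36 (1.04), and Zfpm2, a Gata4 partner, at 12.23 and 13.40 (1.17).

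Genes of the epicardium, the mesothelial sheet that covers the heart and gives rise to fibroblasts and smooth muscle, were higher in the knockdown. Of 18 past the filter 11 were higher by 2-fold or more and none lower, with medians of 1.24 over 20 measured and 1.69 past the filter. Wt1, the zinc finger factor of the epicardium, was at 6.91 and 7.62 at day 4, and at 11.68 in the control and 14.29 in the knockdown at day 10 (2.61). Tbx18 was at 11.46 and 13.56 (2.10, with 1.49 on its other probe) and Tcf21, a factor of the cells that leave the epicardium, at 13.30 and 14.74 (1.45). The uroplakins Upk3b (13.44 and 15.83, 2.39) and Upk1b (14.07 and 15.10, 1.02) and the mucin Muc16 (7.44 and 9.73, 2.29), surface proteins of mesothelium, were all higher. Aldh1a2, which makes retinoic acid, was at 7.96 and 10.34 (2.38). Sema3d was at 8.78 and 11.49 (2.72), but its other probe gave 0.46. Among the 11, Muc16, Aldh1a2, Sema3d and Gpm6a (8.82 and 10.74, 1.93) were below the filter in the control. They passed through the knockdown array alone, so the count and the second median follow in part from the filter. Krt18 and Krt19, keratins of many simple epithelia, were level at 0.05 each.

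Other mesenchymal and vascular lists differed less. In the fibroblast list 4 of 15 past the filter were higher by 2-fold or more and 1 lower (medians 0.44 over 21 measured and 0.40 past the filter), with Mfap4, a microfibril protein, at 12.30 and 14.13 (1.83) and Ogn at 8.20 and 9.55 (1.36), while Dcn (0.21), Pdgfra (-0.15) and Lum (-0.44) were within 2-fold. None of 6 smooth muscle genes past the filter was 2-fold apart (medians -0.11 over 8 measured and -0.11). Of 23 endothelial genes past the filter 1 was higher, Cldn5, the tight junction claudin (12.95 and 14.09, 1.14), and 1 lower, Apln, the ligand apelin (9.47 and 7.99, -1.48), around medians of -0.18. Cdh5 (-0.18), Tie1 (-0.30) and Kdr (0.09) were close to level. Of 13 blood and macrophage genes past the filter 5 were lower by 2-fold or more and 1 higher (medians -0.80 over 16 measured and -0.85). C1qb, a complement subunit, was at 13.16 and 11.44 (-1.72) and Csf1r, the receptor for macrophage growth factor, at 11.62 and 10.24 (-1.38). The other genes 2-fold lower were C1qa (-1.21), Fcer1g (-1.10) and Ptprc, the leukocyte antigen CD45 (-1.25, with its other probe at the floor in both arrays). Mrc1 (-0.85), Cd68 (-0.86), Tal1 (-0.76) and Lmo2 (-0.68) were within 2-fold below 0 and Spi1, a myeloid factor, at 0.44. Alas2, the haem enzyme of red cells, was at 12.29 and 13.23 (0.94).

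Genes of liver-type endoderm and epithelium were lower as well. In the plasma protein list, which also holds the liver enzyme Tdo2 and the receptor Lrp2, 14 genes were past the filter. Of these 9 were lower by 2-fold or more and 1, Lrp2, higher (medians -1.09 over 21 measured and -1.60 past the filter). Tdo2 was at 12.0 and 12.17 at day 4 and at 14.12 in the control and 10.38 in the knockdown at day 10 (-3.73). Ttr, the thyroid hormone carrier, was at 15.01 and 11.57 (-3.44), and Rbp4, the retinol carrier, at 15.94 and 12.53 (-3.41, with -3.58 and -1.48 on its other probes). Afp, the fetal relative of serum albumin, was at 15.70 and 13.22 (-2.47), and Fgb, a fibrinogen chain, at 12.80 and 10.30 (-2.50). The list was not uniform. Alb was at 12.16 and 12.24 (0.08) and Lrp2, an endocytic receptor, at 8.81 and 11.32 (2.51). Fga, another fibrinogen chain, was at 0.40 on its brightest probe and at -0.19, -0.51 and -0.82 on the others, so its direction was not settled.

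Apolipoproteins parted by gene. Apob, at 11.35 in the control and 7.65 in the knockdown (-3.70), Apom (12.76 and 9.27, -3.49), Apoa1 (14.05 and 10.90, -3.14) and Apoc2 (11.24 and 8.77, -2.47) were far lower, and Apoa2 was at 12.55 and 10.98 (-1.56). Apoe, which macrophages and many other cells also make, was at 17.66 and 17.01 (-0.64), Apoc1 at 0.25 and the cholesterol exporter Abca1 at 0.27. In all 6 of 13 past the filter were lower by 2-fold or more and none higher, with medians of -0.27 over 21 measured and -0.72 past the filter. Among endoderm transcription factors Hnf4a, a regulator of hepatocyte genes, was at 9.84 and 8.11 (-1.73), Prox1 at 10.41 and 9.10 (-1.31) and Foxa3 at 9.76 and 8.50 (-1.26), while Gata6 (0.68) and Hhex (-0.47) were within 2-fold (medians -0.56 over 15 measured and -0.51 over 12 past the filter). Apob, Apoc2, Hnf4a, Prox1 and Foxa3 were below the filter in the knockdown and passed through the control array alone, so these counts and medians follow in part from the filter. Igfbp1, a secreted binder of insulin-like growth factors made by liver, lay at the floor in the 3 earlier arrays and at 12.97 and 9.64 at day 10 (-3.32).

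Epithelial genes included Spink1, a secreted trypsin inhibitor and the lowest gene of the ranking, which leaves out Mrpl36 with its larger bound. Spink1 was at 13.88 and 12.14 at day 4 and at 13.80 in the control and 8.63 in the knockdown at day 10, a difference of -5.17 or 36.0-fold. Tff3, a trefoil peptide, was at 11.28 and 7.60 (-3.68), Clic6, a chloride channel protein, at 12.12 and 8.62 (-3.50), and the claudins Cldn6 and Cldn7 at 12.79 and 9.93 (-2.87) and at 10.67 and 8.92 (-1.74). Spink1, Tff3, Clic6 and Cldn7 were below the filter in the knockdown and passed through the control array alone. Epcam was at -1.48 on the brighter probe and -1.33 on the other. Of 20 past the filter 9 were lower by 2-fold or more and 1 higher, Krt7, a keratin that mesothelium also makes (10.69 and 12.78, 2.09), with medians of -0.68 over 28 measured and -0.81 past the filter.

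Hox genes encode homeodomain factors that give cells their position along the body axis, and those at the 5′ end of a cluster, with high paralogue numbers, belong to more posterior tissue. In the HoxA cluster Hoxa4 (0.05) and Hoxa5 (0.71) were within 2-fold, while Hoxa7 was at 7.99 in the control and 11.37 in the knockdown (3.38), Hoxa9 at 7.49 and 10.83 (3.34) and Hoxa10 at 8.0 and 12.25 (4.25). Hoxa11 lay at the floor in the control and at 10.57 in the knockdown, at least 3.93 higher, and Hoxa11os, the RNA antisense to Hoxa11, was at 6.67, just above the floor, and 11.58 (4.91). Whether probes keep the sense and antisense strands apart here was not tested. Below the filter in both arrays were Hoxa13 (6.73 and 7.99, 1.27), Hoxa3 (at the floor in the control and at 8.38 in the knockdown, at least 1.74 higher), Hoxa2 (-0.03) and Hoxa6 (7.21 in the control and at the floor in the knockdown). Of the 6 HoxA genes past the filter 4 were higher by 2-fold or more, with medians of 1.50 over 10 measured and 3.36 past the filter. Each of the 4 (Hoxa7, Hoxa9, Hoxa10 and Hoxa11) was below the filter in the control and passed through the knockdown array alone, so the count and the second median follow from the filter.

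HoxC and HoxD were on the same side. All 5 HoxC genes past the filter were higher by 2-fold or more: Hoxc4 at 9.24 and 11.13 (1.89), Hoxc6 at 9.80 and 11.06 (1.26), Hoxc8 at 9.35 and 10.79 (1.44, with 0.67 on its other probe), Hoxc9 at 8.42 and 10.69 (2.27) and Hoxc10 at 8.50 and 9.60 (1.10). Hoxc9 and Hoxc10 passed through the knockdown array alone. Hoxc5, Hoxc11, Hoxc12 and Hoxc13 stayed below the filter, and the medians were 1.10 over 9 measured and 1.44 past the filter. In HoxD 4 of 6 past the filter were higher by 2-fold or more, with Hoxd10 at 9.43 and 12.48 (3.05), Hoxd9 at 9.49 and 11.89 (2.40), Hoxd4 at 10.81 and 12.28 (1.46) and Hoxd8 at 10.14 and 11.57 (1.44). Hoxd13 (0.70) and Hoxd3 (0.44) were within 2-fold, and the medians were 0.70 over 9 measured and 1.45 past the filter.

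HoxB differed between the days. None of its 8 genes past the filter was 2-fold apart at day 10, with values from -0.71 (Hoxb6) to 0.66 (Hoxb9). At day 4, on other arrays, Hoxb8 had been at 7.91 in the control and 10.52 in the knockdown (2.61), Hoxb6 at 10.43 and 12.69 (2.26), Hoxb7 at 9.44 and 11.21 (1.77) and Hoxb4 at 9.62 and 10.86 (1.25). By day 10 Hoxb7 was at 11.08 and 11.24 (0.17) and Hoxb4 at 11.72 and 11.82 (0.10), so the control array of day 10 was close to the day 4 knockdown array for Hoxb7 and above it for Hoxb4. Hoxb8 was at 9.14 and 8.72, below the filter. Hoxa10 differed by 1.39 at day 4 and 4.25 at day 10. Hoxa9 was at the floor in the day 4 control and at 7.51 in the knockdown, so its day 4 difference was at least 0.87, beside 3.34 at day 10. The difference between the days was not tested.

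**Figure D4:**
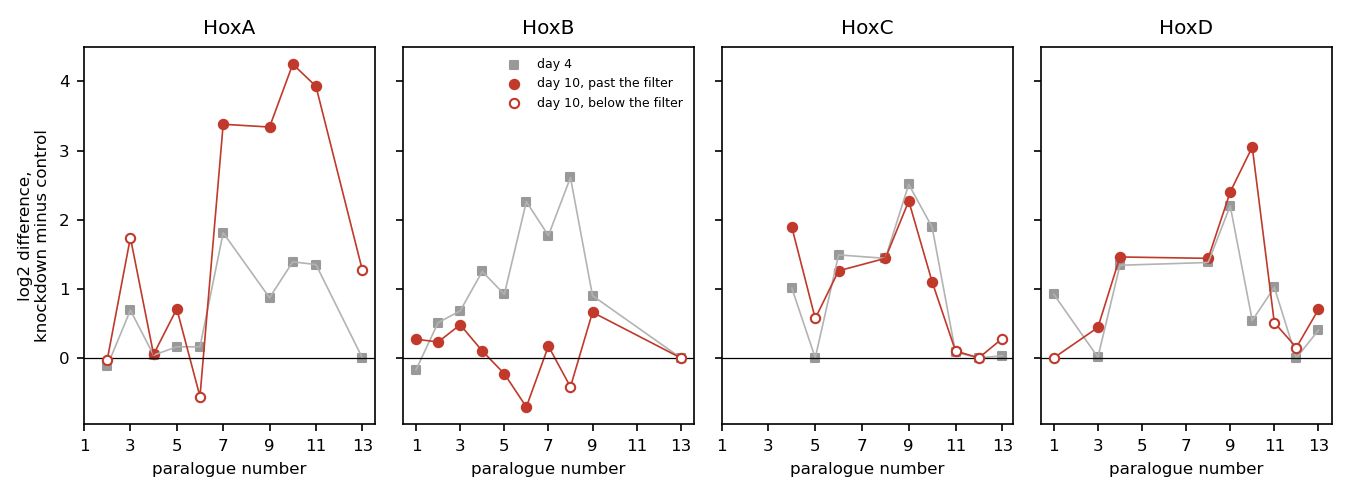
Log2 difference (knockdown minus control) of each measured Hox gene by its paralogue number, in 4 clusters, at day 4 (grey squares) and day 10 (red circles, open where below the filter). HoxA genes from Hoxa7 to Hoxa11 stand highest at day 10, the HoxC values of both days lie close, and HoxB stands above 0 at day 4 and near 0 at day 10.

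Imprinted genes, expressed from the chromosome of a single parent and often growth regulators, held 3 of the 15 lowest genes of the ranking but had no common direction (medians -0.07 over 34 measured and -0.03 over 31 past the filter, 5 lower and 3 higher). Nnat was at 9.16 and 7.63 at day 4 and at 13.83 in the control and 9.26 in the knockdown at day 10, with differences of -4.57 and -3.95 on its probes. H19, a non-coding RNA abundant in embryonic endoderm and mesoderm, was at 13.00 and 10.84 at day 4 and at 15.58 and 11.03 at day 10 (-4.54, or 23.3-fold). Its neighbour Igf2, which shares its enhancers, was at 18.78 and 18.86 (0.08), near the top of the intensity range. Plagl1, a zinc finger factor, was at 17.51 and 13.99 (-3.51). Gatm (-1.61) and Dio3 (-1.46) were lower too, whereas Phlda2 (13.27 and 14.72, 1.45), Peg10 (10.30 and 11.63, 1.34) and Ascl2 (9.37 and 10.69, 1.32), which are best known from placenta, were higher. Dlk1, Meg3, Gnas, Cdkn1c and Igf2r were within 2-fold.

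Genes that respond to low oxygen lay on the lower side almost throughout: 20 of 21 past the filter were below 0 and 9 at least 2-fold lower (medians -0.78 over 22 measured and -0.80 past the filter). Egln3, a prolyl hydroxylase that hypoxia-inducible factor switches on, was at 14.06 and 12.33 (-1.73), and Bnip3, a mitophagy receptor, at 12.22 and 10.53 (-1.69). Slc2a3, a glucose transporter, was at 16.95 and 15.46 (-1.49), Vegfa at 15.69 and 14.47 (-1.22), Hk2 at 15.68 and 14.53 (-1.15) and Adm, adrenomedullin, at 13.66 and 12.55 (-1.11). Kdm3a was at 0.06. In glycolysis 3 of 13 past the filter were lower by 2-fold or more (Pgam2, Hk2 and Aldoc) and 1 higher (medians -0.35 over 14 measured and -0.34 past the filter). The higher gene was Tpi1, triosephosphate isomerase, at 15.15 in the control and 18.41 in the knockdown (3.26). The other 3 arrays gave Tpi1 17.98, 17.77 and 18.08, so here it was the control array of day 10 that stood apart.

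Among signalling genes, several secreted Wnt regulators were higher. Of 30 Wnt pathway genes past the filter 7 were higher by 2-fold or more and none lower, with medians of 0.02 over 49 measured and 0.41 past the filter. Sfrp2, a secreted Wnt binder, was at 11.36 and 13.71 (2.35), Sfrp1, another, at 16.19 and 17.25 (1.06), and the R-spondins Rspo1 and Rspo2, which strengthen Wnt signals, at 8.79 and 11.07 (2.28) and at 8.29 and 9.80 (1.51). Both R-spondins were below the filter in the control and passed through the knockdown array alone. The count and the second median of this list therefore follow in part from the filter. The ligand Wnt5b was at 9.34 and 10.89 (1.55). Axin2, a common readout of the canonical pathway, was level at -0.03, and Nkd1, another target, at -0.48.

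In the BMP and TGF-beta pathway 3 of 30 past the filter were higher by 2-fold or more and 4 lower (medians -0.02 over 37 measured and -0.04). The higher genes were ligands: Gdf6 (7.84 and 9.81, 1.97), Tgfb3 (10.95 and 12.83, 1.88) and Gdf10 (9.69 and 11.40, 1.71). The lower genes were Cfc1 (10.16 and 7.89, -2.27) and Tdgf1 (10.38 and 8.97, -1.40), coreceptors of Nodal, and the ligands Bmp7 (-1.13) and Bmp5 (-1.07). The target genes Id1 (-0.12), Id2 (0.10) and Id3 (0.33) and the receptors Bmpr1a (-0.20) and Tgfbr2 (0.09) were near level. FGF genes were split 3 and 3 among 17 (medians -0.05 over 28 measured and -0.18): Fgf12 (7.78 and 10.55, 2.77), Fgf5 (7.06 and 9.62, 2.56) and Fgf18 (1.34) were higher and Dusp4, a phosphatase induced by MAP kinase signalling (12.56 and 10.22, -2.33), Fgf8 (-1.72, but -0.49 and -0.05 on its other probes) and Fgf15 (-1.02) lower. Fgf12, Fgf5 and Gdf6 were below the filter in the control and passed through the knockdown array alone. Cfc1, Tdgf1 and Fgf8 passed through the control array alone, so the counts of the BMP and FGF lists follow in part from the filter. Fgf10, which was added to the medium as a protein, was at 0.42.

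Of 16 retinoid genes past the filter 5 were higher by 2-fold or more and 2 lower (medians 0.06 over 21 measured and 0.32 past the filter). The higher genes were Aldh1a2 (2.38), Dhrs3, a retinaldehyde reductase that retinoic acid induces (11.97 and 13.87, 1.90), and the receptor Rarb, itself a retinoic acid target (11.17 and 13.05, 1.88), besides Nr2f1 and Nr2f2 named above, while the synthetic enzymes Aldh1a1 (0.35) and Rdh10 (0.29) were within 2-fold. The carriers Rbp4 and Ttr, which move retinol in plasma, were the 2 lower genes. The receptors Rara (0.17), Rarg (0.37) and Rxra (0.53) and the binding proteins Crabp1 (-0.23) and Crabp2 (-0.43) were within 2-fold. In the Notch and Hedgehog list of 16 past the filter the coreceptor Gas1 was at 13.89 and 15.64 (1.76) and the Notch ligand Jag2 at 10.53 and 9.41 (-1.12), and no other gene was 2-fold apart. Guidance genes had 5 of 35 past the filter at least 2-fold higher and none lower (medians 0.15 over 49 measured and 0.17): the semaphorins Sema3d and Sema3c (7.86 and 9.65, 1.79), their receptors Plxna4 (12.19 and 13.91, 1.72) and Plxna2 (1.36), and the ephrin receptor Epha3 (11.42 and 12.93, 1.51). Sema3d and Sema3c passed through the knockdown array alone.

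Extracellular matrix genes held large single differences within lists that were near level (medians -0.02 over 35 collagen chains measured and -0.02 past the filter, and 0.00 over 44 proteoglycans and glycoproteins measured and -0.14). Angptl7, a secreted angiopoietin-like protein, lay at the floor in the 3 earlier arrays and at 10.03 in the control and 14.49 in the knockdown (4.46, or 22.0-fold). Fmod, fibromodulin of tendon, was at 10.05 and 12.03 (1.98), and Fbln5, of elastic fibres, was at 7.69 and 9.19 (1.50, with 0.00 on its other probe). Thbs4, a thrombospondin of muscle and tendon, was at 13.22 and 10.43 (-2.79) and Tnc, tenascin C, at 14.54 and 13.25 (-1.30). Among 29 collagen chains past the filter Col2a1 (11.03 and 9.54, -1.48) and Col12a1 (-1.21) were lower and Col14a1 (11.32 and 12.48, 1.16), Col8a2 (1.14) and Col9a1 (1.06) higher. The basement membrane chains Col4a1 and Col4a2, which lie head to head, were at -0.85 and -0.74, and the fibrillar chains Col3a1 (-0.02), Col1a2 (0.14) and Col5a1 (-0.08) were level. Mmp9, a gelatinase, was at 12.21 and 10.26 (-1.95) and Mmp2, another, at 0.56.

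General machinery was level between the arrays. None of 31 cytosolic ribosome genes past the filter was 2-fold apart, nor any of 31 proteasome genes (medians 0.12 over 32 measured and 0.13 past the filter) or 21 Polycomb genes. Of 50 mitochondrial ribosome genes past the filter 49 were within 0.5 of 0, and the remaining gene, Mrpl36, was at the floor in the knockdown, with 14.89 and 14.78 at day 4 and 14.38 in the control at day 10, a difference of at least 7.74 from 1 probe. The ESC array also lay at the floor for Mrpl36. Cell cycle genes were within 2-fold for 34 of 35 past the filter, with Mki67 at 0.47, Top2a at -0.16 and Ccnb2 at 0.22. The 1 gene beyond was Cdkn1a, the p21 inhibitor that p53 induces, at 14.73 and 13.21 (-1.52). Other p53 targets among the stress genes were on the same side without reaching 2-fold: Trp53inp1 (-0.85), Ccng1 (-0.71) and Mdm2 (-0.70). In that list 18 of 19 genes past the filter lay below 0, and Jun (0.70) was the gene above.

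Eomes and its listed chromatin partners were near level at day 10, with Eomes itself at 0.26 and Wdr5, a subunit of histone methyltransferase complexes, at 0.45. The gene of that list beyond 2-fold was Kdm6a, an X-linked histone H3 lysine demethylase, at 13.05 in the control and 11.37 in the knockdown (-1.68). The other 3 arrays gave Kdm6a 13.46, 13.40 and 13.38. Of the 8 genes past the filter that lie beside Eomes none was 2-fold apart, from Golga4 (-0.59) to Rbms3 (0.39).

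Among the 15 highest genes of the ranking not yet named were Cntn6, a neural adhesion protein (7.76 and 11.09, 3.33), Hs3st2, a heparan sulphate sulphotransferase (7.35 and 10.57, 3.22), Zic1, a zinc finger factor of neural tube and somites (8.0 and 11.10, 3.09), and Mapt, the microtubule protein tau (7.67 and 10.73, 3.05). DBC1, kept under the older symbol of the array, was at 9.45 and 12.48 (3.03, with 2.13 on its other probe). Rhox6 (7.75 and 10.70, 2.95) and Rhox9 (9.45 and 12.36, 2.91), reproductive homeobox genes of the same X-linked cluster, stood beside each other in the ranking. Cntn6, Hs3st2, Zic1, Mapt and Rhox6 were below the filter in the control and entered the ranking through the knockdown array alone, as did its HoxA genes. Genes with an array at the floor have bounds only, and these were 5 in all. Besides Hoxa11 and Mrpl36 they were Prdm14, a pluripotency factor at the floor in the control and at 13.18 in the knockdown (at least 6.54 higher), Dmrtc1b (at least 3.02 higher) and Gria4, a glutamate receptor subunit (at least 2.93 higher, and at least 1.25 on its other probe). Prdm14 had been at 11.37 in ESCs and at 8.38 and 8.56 at day 4. No other pluripotency gene past the filter was 2-fold higher, and Pou5f1 was at -0.59 and Tdgf1 at -1.40.

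Few of the day 10 differences were present at day 4, which was measured on different arrays and so is a separate pair, with 0.804% of genes past its filter at least 2-fold higher and 1.47% lower. Over 9850 genes past the filter on both days, the day 4 and day 10 differences had a Pearson r of 0.117 across genes, which are not independent replicates, with SDs of 0.32 and 0.47. At least 2-fold higher on both days were 21 genes, or 12.9% of the 163 higher at day 10 and 31.3% of the 67 higher at day 4 in that set. They included 10 Hox genes besides Tbx4, a T-box factor of hindlimb and lung (8.68 and 12.45 at day 4, 9.74 and 12.07 at day 10), Pitx1, a hindlimb homeodomain factor (7.87 and 10.91, then 11.76 and 12.88), Lhx2 and Dhrs3. At least 2-fold lower on both days were 23 genes, or 9.5% of 242 and 21.1% of 109. Among these were Spink1, H19, Nnat, Ttr, Cldn6, Cldn7, Kcnj5, Tdgf1 and Pdlim3, a Z-disc protein at 15.00 and 12.69 at day 4 and 14.91 and 13.50 at day 10. Some genes of these counts passed through 1 array alone on both days, such as Hoxa10, Hoxc9 and Hoxc10 through the knockdown arrays and Foxq1 through the control arrays. These sarcomere genes were near level at day 4: Ttn differed by 0.01, Actn2 by -0.12, Acta1 by -0.11 and Actc1 by 0.24, when their levels were below those of day 10.

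**Figure D5:**
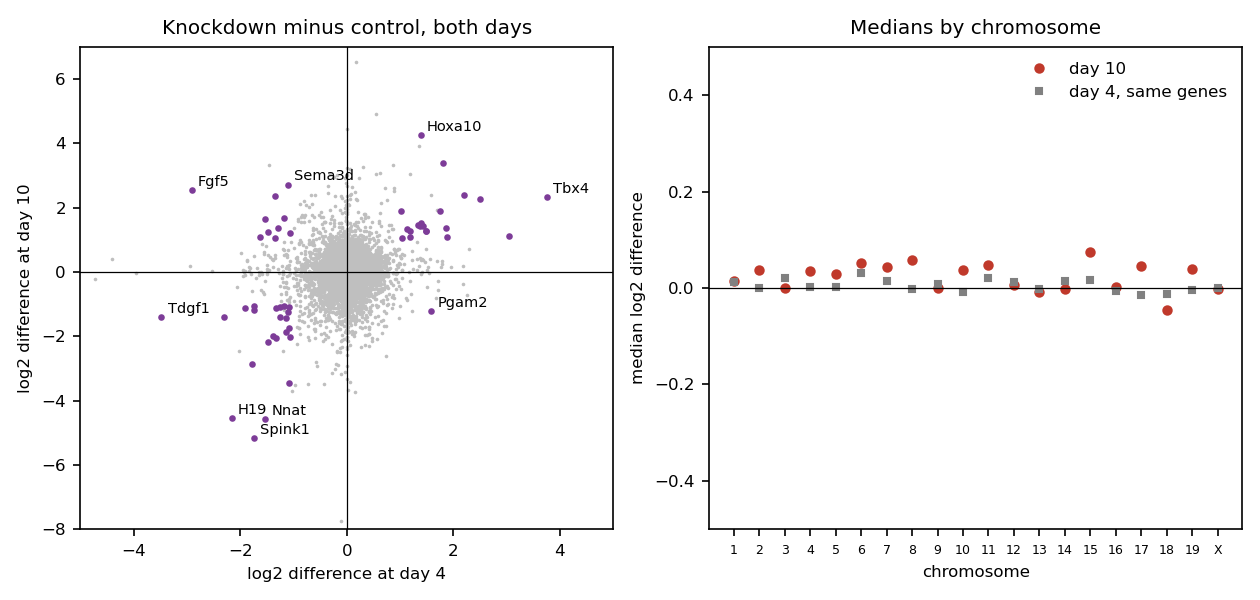
Left, the log2 difference (knockdown minus control) at day 4 (x axis) and day 10 (y axis) of each gene past the day 10 filter. Purple marks genes past the filter and 2-fold apart on both days, with gene models and clones left out. Right, the median difference of each chromosome at day 10 (red) and of the same genes at day 4 (grey), all between -0.045 and 0.074.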

How the data were processed

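Total RNA of 5 cultures was labelled with Cy5 and hybridised to 1 array each. The authors deposited a linear intensity for each probe, read out with Agilent Feature Extraction 10.7.1.1 per the submitters' processing notes, and the sources used here state no normalization. Array medians of the deposited intensities ran from 344 to 745.

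Groups came from the labels. Intensities were quantile normalized over the 5 arrays, floored at 100 and converted to log2 (Python 3.11.15, numpy 2.4.6, pandas 2.3.3; the code was tested on simulated data). Of 26423 probes 20377 carried 1 gene symbol and 6046 are unnamed here. Symbols were updated through a RefSeq gene table of GRCm38.p6 (18213 current, 2126 by synonym, 38 kept), and the probe brightest over the 5 arrays stood for each gene (2278 had several). The comparison was knockdown minus control at day 10, with no test, and precision is limited by the number of arrays.

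The members, the 54 lists (1348 genes, 1173 measured, 907 past the filter) and the thresholds were chosen with earlier results of these data known. Named genes were the 15 highest and lowest past the filter, bounds, up to 6 list members with the list median and 4 against it, all Hox genes, markers and runs of neighbours; others named are examples chosen after their values were seen. Alternatives were other normalizations, loess centring (span 0.3, 3 iterations, statsmodels 0.14.6), floors, filters, probe means and a 4-fold threshold.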

Additional observations from a re-analysis of the deposited data

Results flagged for a closer look

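At least 2-fold apart on both days but in opposite directions were 11 genes past the filter, each from 1 array a side, and the difference between the days was not tested. Lower in the knockdown at day 4 and higher at day 10 were 10 of them, or 6.13% of the 163 higher at day 10 and 9.17% of the 109 lower at day 4. Fgf5, Pcdh19, Sema3d and Wnt2b passed the day 4 filter through the control array alone and the day 10 filter through the knockdown array alone. The count therefore follows in part from the filters. Fgf5, a growth factor of the epiblast, differed by -2.91 at day 4 and 2.56 at day 10, and Gfra3, a neurotrophic factor receptor, by -1.34 and 2.36. Sema3d, a guidance ligand of the epicardium, differed by -1.10 and 2.72, with a second probe at 0.46 at day 10, and Wnt2b, a Wnt ligand of mesothelium and other mesenchyme, by -1.62 and 1.10. The adhesion proteins Pcdh19 (-1.53 and 1.64) and Flrt3 (-1.29 and 1.36), the secreted proteins Ptn (-1.48 and 1.25) and Cthrc1 (-1.34 and 1.06), the neuronal microtubule regulator Stmn2 (-1.18 and 1.68) and Sowahd (-1.06 and 1.22) did the same. The muscle mutase Pgam2 was the gene in the other direction, at 8.93 in the control and 10.52 in the knockdown at day 4 (1.59) and at 16.60 and 15.38 at day 10 (-1.22).

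Probes with no gene name here were outside the comparison. Of 1646 such probes past the filter 37 were higher by 2-fold or more in the knockdown (2.25%) and 61 lower (3.71%), shares near those of the named genes, with extremes of 5.49 and -3.00.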

How the results depend on the processing

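No paired analysis was possible because each group held 1 array, and for the same reason no replicate could be left out. Of 52 lists with at least 5 members past the filter, the 16 with a median of at least 0.5 in size relative to all genes kept its sign under every alternative run, and those whose median reached or crossed 0 were at most 0.16 in size. Over 916 genes followed across the alternatives, those at least 2-fold apart kept their sign wherever they were measured. The counts of genes 2-fold higher and lower (272 and 393) became 1134 and 182 with the values as deposited, where the whole array was brighter, 116 and 181 with a filter at the 75th percentile and 63 and 60 at 4-fold. Under the other alternatives they ran from 254 to 355 and from 370 to 479. The relative median of HoxA was 3.67 with scaling to a common 75th percentile, 3.70 with quantile normalization of the 2 arrays alone and 3.03 with a floor of 200. With no filter it was 1.50, and the values were 1.24 for epicardium, -1.09 for plasma proteins, -0.27 for apolipoproteins, 1.10 for HoxC, 0.70 for HoxD, 0.02 for the Wnt pathway, -0.05 for pluripotency and -0.14 for primitive streak, since members near the floor then enter. With a filter at the 75th percentile, which leaves fewer members, they were -1.45 for calcium handling, -0.95 for conduction, 0.40 for cardiac transcription factors, 2.01 for epicardium, -2.52 for plasma proteins, -1.51 for epithelial genes and 0.30 for Notch and Hedgehog.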

Other observations

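Neighbouring genes that were past the filter and 2-fold apart on the same side stood in 6 runs of 3 or more genes. Besides the HoxA, HoxC and HoxD runs these were 3 other gene families. The complement genes C1qa, C1qb and C1qc on chromosome 4, made mainly by macrophages, were lower by -1.21, -1.72 and -1.53. The chemokine genes Ccl3 (13.25 in the control and 12.02 in the knockdown, -1.23), Ccl4 (-1.24) and Ccl6 (-1.38) on chromosome 11 were lower too. The interferon-inducible guanylate-binding proteins Gbp2 (9.72 and 11.22, 1.50), Gbp2b (9.75 and 11.54, 1.80) and Gbp3 (1.01) on chromosome 3 were higher. Their sequences are alike, so signal shared between probes was not told apart. Every gene of the HoxA run, and Hoxc9, Hoxc10 and Gbp3, passed the filter through the knockdown array alone, and Ccl6 through the control array alone. Genes below the filter were passed over in forming runs, so the runs follow in part from the filter. By chromosome the median difference ran from -0.045 (chromosome 18) to 0.074 (chromosome 15) at day 10, and from -0.015 to 0.032 over the same genes at day 4, so no chromosome stood apart as a block on these arrays.

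Transcription factors listed for lateral plate and limb were split, with 4 of 13 past the filter at least 2-fold higher and 2 lower. Emx2, a factor of the urogenital system and forebrain, was at 7.38 and 9.61 (2.24). Osr1, a zinc finger factor of intermediate mesoderm, was at 9.21 and 11.13 (1.92, with 1.93 on its other probe). Lhx2 was at 10.87 and 12.38 (1.51) and Pitx1 at 11.76 and 12.88 (1.12). Shox2, a factor of the sinus node and limb, was at 10.88 and 9.57 (-1.31) and Msx2 at 9.33 and 8.19 (-1.14). In the T-box family Tbx4 (9.74 and 12.07, 2.33) and Tbx18 were higher and Tbx20 lower, with Tbx3 (-0.67), Tbx5 (-0.37) and T (0.39) within 2-fold. Of 17 forkhead genes past the filter Foxq1 (10.31 and 8.12, -2.19) and Foxa3 were lower and none was higher, and none of 12 Sox genes was 2-fold apart. Kinesins, motor proteins of microtubules, were within 2-fold for 27 of 28 past the filter, the other being the neuronal motor Kif1a (-1.09, with -0.17 on its other probe).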
